A study of Mus musculus with 12 samples.

Results

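Read counts of 26 transcription factor genes that direct neural or visceral cell fates other than the pain-sensing neuron were followed in trigeminal ganglia of adult mice after loss of Prdm12. The 26 genes were taken from a written list, whatever their level, out of 55416 genes counted in each library. By role, 5 belong to visceral and autonomic programmes, 8 mark progenitor domains of the embryonic neural tube, 5 are proneural genes and 8 mark classes of postmitotic neurons. The question was whether any fate gene that is silent in the adult ganglion gains reads when Prdm12 is deleted in adulthood.

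The 6 inducible knockout (iKO) libraries came from mice that carried Rosa26Cre ERT2, were Fl/Fl at Prdm12 and were injected with tamoxifen, the ligand that activates CreERT2. The Rosa26 locus is active in most cell types, so deletion could also reach cells other than neurons. In which cells it took place was not measured. The 6 controls were of several kinds. Control 1 carried Rosa26Cre ERT2 with Fl/+, controls 2 and 3 were Fl/+ without Cre, and control 4 carried Rosa26Cre ERT2 with no floxed allele, all injected with tamoxifen. Control 1 could thus lose 1 copy of Prdm12. Controls 5 and 6 were genetically iKO (Rosa26Cre ERT2; Fl/Fl) but were given corn oil in place of tamoxifen. All mice were adult, of the C57Bl6 strain, and were sampled 1 month after injection. Of the iKO libraries 3 were from females and 3 from males, and of the control libraries 2 were from females and 4 from males. The labels do not say whether each library is 1 animal or a pool. Total counts ran from 13207526 to 24178970 per library, 113840480 over the iKO libraries and 104583388 over the controls. Levels are in CPM, reads scaled to library totals with TMM factors. A count of 0 has a 1-sided upper 95% Poisson limit of about 3 reads. That is 0.124 CPM in the deepest and 0.227 CPM in the shallowest library. Over all iKO libraries together the limit is 0.0264 CPM, and over all controls 0.0287 CPM. The exact Poisson intervals given below for genes with reads are bounded on both sides. For a count of 0 their upper limits are 0.0324 CPM in iKO and 0.0353 CPM in controls. These limits cover counting error only.

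Prdm12, the deleted gene, stood at 16.7 ± 1.97 CPM in iKO and 106 ± 28.4 CPM in control ganglia (SD, n = 6 each). It ran from 13.2 to 19.1 CPM in iKO and from 56.8 to 132.8 CPM in controls. By edgeR its log2 fold change was -2.64 with an adjusted p of 2.7e-05. The libraries were those of sensory ganglia by their markers. Pou4f1 and Isl1, transcription factors of all sensory neurons of these ganglia, averaged 155 and 162 CPM in iKO and 155 and 154 CPM in controls, with log2 fold changes of 0.02 and 0.08. In whole ganglia, fewer cells of a type and less RNA per cell cannot be told apart.

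Cell fates in the developing nervous system are set by homeodomain and basic helix-loop-helix factors that switch each other off at domain borders, so that each progenitor or young neuron keeps 1 programme. Prdm12 encodes a zinc finger protein with a PR domain and takes part in this choice: in the Xenopus spinal cord it opposes Dbx1 and Nkx6 genes while promoting the En1-positive V1 interneurons. In embryonic mouse nociceptors its loss leads to expression of visceral determinants of the Phox2 family. Most of the factors below are switched off once neurons mature, and several are used again by glia, blood vessels, immune cells or endocrine glands.

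The 26 genes fell into 4 patterns of detection. Dbx1, Gsx2, Atoh1 and Ptf1a had no read in any of the 12 libraries. Phox2a, Hand1, Hand2, Gsx1, Evx1, Evx2, En1, Hmx2 and Hmx3 had reads in 1 to 4 libraries, 25 reads in all in iKO and 20 in controls. Olig3 and Neurog2 had reads in 10 and 9 libraries. The other 11 genes, namely Gata2, Gata3, Dbx2, Nkx6-1, Nkx6-2, Olig1, Neurog1, Neurog3, Lhx3, Bhlhe22 and Tlx1, had reads in all 12. Altogether 19 of the 26 genes had a read in an iKO library and 22 in a control library.

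**Figure D1:**
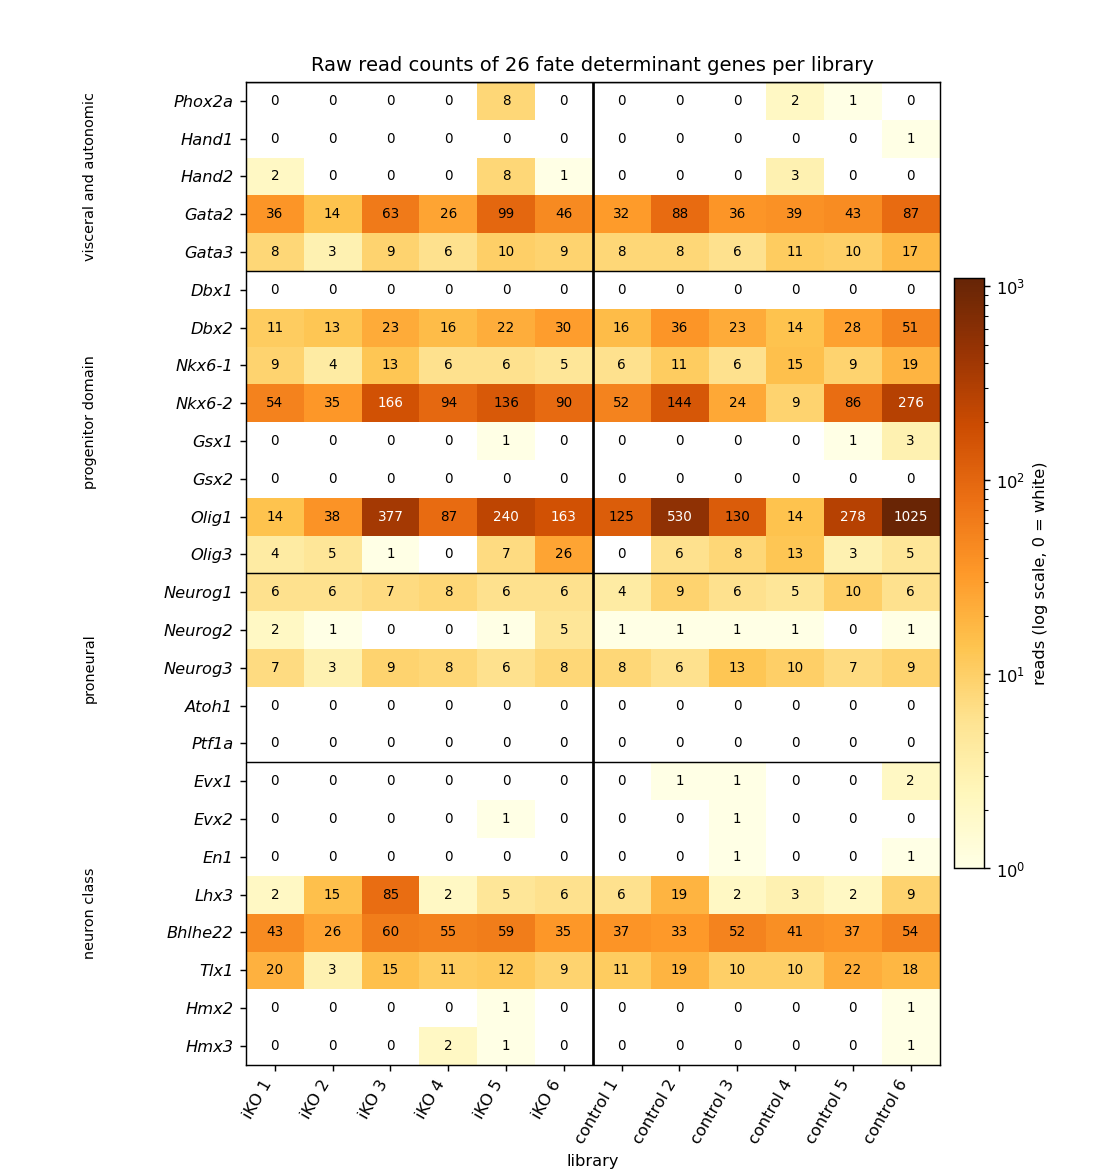
Raw reads of each of the 26 genes (rows, grouped by role) in each library (columns, iKO left of the line, controls right of it), with shading on a log scale and white for 0. Dbx1, Gsx2, Atoh1 and Ptf1a are white throughout, and Phox2a and Hand2 are darkest in iKO 5, with 8 reads each.

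None of the 4 fate genes silent in controls gained reads in iKO. A gene was counted as released when it had no read in the 6 controls and at least 1 read in 3 or more iKO libraries. Of the 26, 4 had no read in any control and none of these 4 met the rule, since all stayed at 0 in iKO. Among all genes of the files, 282 of the 22042 with no control read met it, which is 1.28%. With only 4 genes, a count of 0 cannot be told from that share. Phox2a (8 reads in iKO, 3 in controls) and Hand2 (11 in iKO, 3 in controls) had control reads, so the rule could not apply to them. With the groups exchanged, 1 of the 7 fate genes without an iKO read met the mirrored rule, against 0.749% of all such genes (160 of 21364). That gene was Evx1, a homeobox gene of V0 commissural interneurons, with 0 reads in iKO and 1, 1 and 2 reads in controls 2, 3 and 6. Evx1os overlaps its exons on the opposite strand, with 1 read in iKO and 5 in controls, so these reads cannot be assigned to Evx1 with certainty. Without any 1 of these controls it no longer met the mirrored rule. Without control 4, Hand2 met the release rule, as did 1.63% of the genes then at 0 in controls.

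The 4 genes with no read cover different fates. Dbx1 defines the progenitors of V0 interneurons, Gsx2 dorsal spinal progenitors and the lateral ganglionic eminence, Atoh1 inner ear hair cells and cerebellar granule cells, and Ptf1a inhibitory neurons of the dorsal horn and cerebellum as well as the exocrine pancreas. A count of 0 in all libraries of a group still allows the levels given above for that group. Their RefSeq promoters (GRCm38.p6, from 250 bases before to 50 after the start of transcription, 300 bases each) are shown because these are the genes the question turns on, with that of Phox2a, the visceral determinant with reads in iKO 5, for comparison. Capitals mark CG dinucleotides.
Dbx1, chr7:49636786-49637085, minus strand: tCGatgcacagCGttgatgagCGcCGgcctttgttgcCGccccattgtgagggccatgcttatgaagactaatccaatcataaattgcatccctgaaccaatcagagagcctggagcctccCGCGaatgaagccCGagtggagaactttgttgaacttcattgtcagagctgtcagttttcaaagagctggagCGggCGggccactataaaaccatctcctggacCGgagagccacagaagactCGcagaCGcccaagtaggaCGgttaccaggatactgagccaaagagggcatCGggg
Gsx2, chr5:75075351-75075650, plus strand: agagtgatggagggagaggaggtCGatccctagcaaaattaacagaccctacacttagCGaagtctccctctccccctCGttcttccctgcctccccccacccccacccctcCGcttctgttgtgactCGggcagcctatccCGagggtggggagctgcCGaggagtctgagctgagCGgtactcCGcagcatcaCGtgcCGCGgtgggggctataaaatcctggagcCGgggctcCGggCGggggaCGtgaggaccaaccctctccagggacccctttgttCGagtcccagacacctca
Atoh1, chr6:64728875-64729174, plus strand: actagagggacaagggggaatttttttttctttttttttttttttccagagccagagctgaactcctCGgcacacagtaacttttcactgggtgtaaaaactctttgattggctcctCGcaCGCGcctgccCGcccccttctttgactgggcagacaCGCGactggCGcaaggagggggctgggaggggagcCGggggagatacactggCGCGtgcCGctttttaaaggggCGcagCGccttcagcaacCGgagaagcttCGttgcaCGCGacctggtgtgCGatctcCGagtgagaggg
Ptf1a, chr2:19445413-19445712, plus strand: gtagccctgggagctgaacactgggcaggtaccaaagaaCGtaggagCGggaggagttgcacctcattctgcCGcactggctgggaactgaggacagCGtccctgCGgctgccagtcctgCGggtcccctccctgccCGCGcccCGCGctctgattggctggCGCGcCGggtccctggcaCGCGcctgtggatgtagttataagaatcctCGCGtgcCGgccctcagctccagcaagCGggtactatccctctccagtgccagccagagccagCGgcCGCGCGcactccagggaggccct
Phox2a, chr7:101818063-101818362, plus strand: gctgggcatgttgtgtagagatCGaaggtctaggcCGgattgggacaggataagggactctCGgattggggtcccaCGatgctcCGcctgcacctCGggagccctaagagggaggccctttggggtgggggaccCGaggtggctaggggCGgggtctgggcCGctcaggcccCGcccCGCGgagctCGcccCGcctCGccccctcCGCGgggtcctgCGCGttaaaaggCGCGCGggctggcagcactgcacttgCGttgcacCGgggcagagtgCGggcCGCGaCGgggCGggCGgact
The 4 silent promoters held 15 (Dbx1), 17 (Gsx2), 20 (Atoh1) and 23 (Ptf1a) CG dinucleotides, and the Phox2a promoter 30. Of all 32851 promoters in the RefSeq table, 34.6% held at least as many as Dbx1 and 11.7% at least as many as Phox2a. Of the 26 genes, 23 had a promoter in the table, 26 promoters in all, with a median of 19.5 CG dinucleotides against 7 over all promoters. The 9 genes read in all 12 libraries and listed there had a median of 28 over 11 promoters, and the 4 silent genes one of 18.5. The 8 listed genes read in 1 to 4 libraries, Phox2a among them, had a median of 19 over 9 promoters. The letters CANNTG, the core bound by basic helix-loop-helix factors and the same on both strands, occurred in 1 of the 4 silent promoters (Gsx2), in 16 of the 26 promoters of these genes (61.5%) and in 72.3% of all promoters. These counts describe letters in the window and no binding was measured.

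None of the 5 visceral and autonomic determinants rose or fell past the threshold. Only Gata2 passed the count filter, and the others were tested in the fit without it. In these 2 fits 0.379% and 0.378% of all genes passed. Phox2a, which specifies noradrenergic and visceral motor neurons, had 8 reads in iKO 5 and none in the other iKO libraries, against 2 reads in control 4, 1 in control 5 and none in the other controls. Both groups thus had mostly empty libraries, and they overlapped. Summed over the group, this is 0.0703 CPM in iKO (95% exact Poisson interval 0.0303 to 0.139, counting error only), against 0.0287 CPM in controls (0.00592 to 0.0838). In the fit of all 36539 genes with at least 1 read, Phox2a had an edgeR adjusted p of 0.787. Exons of Inppl1 overlap Phox2a on the opposite strand in GENCODE M21 and held 3387 reads in iKO and 3152 in controls, and without strand the source of a read in a shared stretch cannot be told.

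Hand2, a bHLH factor of sympathetic neurons, heart and limb, had 2, 8 and 1 reads in iKO 1, 5 and 6, against 3 reads in control 4. The other libraries had none, so Hand2 had reads in 3 of 6 iKO and 1 of 6 control libraries (edgeR adjusted p = 0.787). Hand2os1 overlaps its exons on the opposite strand, with 25 reads in iKO and 9 in controls, and without strand reads of a shared stretch cannot be told apart. Its summed level was 0.0966 CPM in iKO (95% interval 0.0482 to 0.173), against 0.0287 CPM in controls (0.00592 to 0.0838). Hand1, its paralogue in heart and placenta, had no iKO read and 1 read in control 6. The reads of Phox2a and Hand2 came largely from 1 library, iKO 5, and without it they fell to 0 and 3 reads in iKO. The same library was the highest of all 12 for 4 of the 12 genes in the list of autonomic transmitter genes. These were Dbh, Npy and the cholinergic transporter genes Slc5a7 and Slc18a3. The rest of the list was highest elsewhere, such as Slc18a2 in iKO 2 and Ddc and Gch1 in control 6. Summed sympathetic neuron markers were highest in iKO 2 (23.7 CPM, against 21.3 CPM in iKO 5). Th and Slc18a2 made up most of that sum, at 9.85 and 13.5 CPM in iKO 2. The mean log2(CPM + 0.5) of the same markers was instead highest in iKO 5 (0.765), with control 4 next (0.617). Phox2a, Hand2 and Gata3 are themselves on that list. How often iKO 5 was highest over all genes was not counted. Dbh, which encodes the enzyme that makes noradrenaline, had 0.202 CPM in iKO 5, with the next library, control 3, at 0.0616 CPM. It had 6 reads over all iKO libraries and 2 over all controls. Npy, a peptide of sympathetic neurons, had 1.45 CPM there, with the next, control 2, at 0.67 CPM. Th, which encodes the first enzyme of catecholamine synthesis, was lowest in iKO 5, at 7.1 CPM. The part of such RNA in the Phox2a and Hand2 reads was not tested. iKO 5 was also the highest library for summed skeletal muscle markers (860 CPM, against 236 CPM in the highest control) and endothelial markers (141 CPM, against 120 CPM in the highest control), and it was the deepest. Smooth muscle and pericyte markers were highest there too (253 CPM, against 205 CPM in the highest control). In the other libraries with Hand2 reads they summed to 201 CPM (iKO 1), 197 CPM (control 4) and 159 CPM (iKO 6). The part of smooth muscle RNA in the Hand2 reads was not tested.

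Gata2, a zinc finger factor of sympathetic neurons, blood progenitors, mast cells and endothelium, ran from 1.06 to 4.0 CPM with a median of 2.21 in iKO, against 2.22 to 4.54 CPM with a median of 2.46 in controls. The groups overlapped, with iKO 5 and controls 2 and 6 highest. The log2 fold change was -0.36 ± 0.30 (SE, 95% interval -1.01 to 0.28, edgeR adjusted p = 0.711). Gata3, a factor of sympathetic neurons and T cells, ran from 0.227 to 0.462 CPM with a median of 0.394 in iKO, against 0.37 to 0.80 CPM with a median of 0.58 in controls. iKO 2 was the lowest library and control 6 the highest. Gata3 was under the count filter, and without the filter its log2 fold change was -0.49 ± 0.32 (edgeR adjusted p = 0.787).

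Beside these, none of the 6 tested autonomic transmitter genes out of 12 listed passed in either direction, against 0.379% of all 16637 genes tested. Their median log2 fold change was -0.05, against 0.001 over all genes tested. The smallest p-values were those of Slc5a7 (log2 fold change 0.59, edgeR adjusted p = 0.437) and Th (-0.22, edgeR adjusted p = 0.458).

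Progenitor domain genes were partly silent and partly read in every library. Of the 8, 3 passed the count filter and 6 had reads. None passed the threshold, against 0.379% of all genes after the filter and 0.378% without it. Dbx2, a homeobox gene of intermediate neural tube progenitors, ran from 0.629 to 1.54 CPM with a median of 0.977 in iKO, against 0.839 to 2.4 CPM with a median of 1.55 in controls. iKO 6 was the highest iKO library and control 4 the lowest control, and the groups overlapped. Its log2 fold change was -0.60 ± 0.27 (SE, 95% interval -1.18 to -0.03, unadjusted p = 0.0409, edgeR adjusted p = 0.433). Nkx6-1, a factor of ventral spinal progenitors and of pancreatic beta cells, ran from 0.242 to 0.548 CPM with a median of 0.344 in iKO, against 0.37 to 0.899 CPM with a median of 0.554 in controls. It was under the filter, with a log2 fold change of -0.74 ± 0.36 without it (unadjusted p = 0.049, edgeR adjusted p = 0.71). Control 4 and control 6 were highest and iKO 5 lowest.

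Olig1 showed the widest spread of the 26 genes. It encodes a bHLH factor of the oligodendrocyte lineage, the myelinating glia of the central nervous system. It ran from 0.8 CPM in iKO 1 to 15.9 CPM in iKO 3 with a median of 6.97 CPM in iKO, against 0.839 CPM in control 4 to 48.2 CPM in control 6 with a median of 12.7 CPM in controls. The groups overlapped nearly throughout the iKO range. The log2 fold change was -1.31 ± 0.74 (SE, 95% interval -2.9 to 0.28, edgeR adjusted p = 0.56). Nkx6-2, used by ventral progenitors and later by myelinating oligodendrocytes, ran from 2.65 to 7.0 CPM with a median of 5.05 in iKO, against 0.539 to 13.0 CPM with a median of 4.4 in controls. Control 4 was the lowest and control 6 the highest library, and every iKO value lay between them. The log2 fold change was -0.11 ± 0.55 (SE, 95% interval -1.29 to 1.076, edgeR adjusted p = 0.962), and its sign turned to 0.44 without control 6. Exons of Inpp5a overlap Nkx6-2 on the opposite strand, with 2599 reads in iKO and 2547 in controls.

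Both genes followed the oligodendrocyte markers from library to library. The 8 markers, among them Mog, Mobp and Opalin, summed to 143 to 636 CPM in iKO (median 377), against 128.5 to 1827 CPM in controls (median 644), with iKO 1 and control 4 lowest and control 6 highest. None of the 8 was at 0 in either group and none passed the threshold, against 0.379% of all genes, with a median log2 fold change of -1.21. Sox10, 1 of the 8, is also a gene of satellite and Schwann cells. Over the 12 libraries, Olig1 and the mean log2 level of the list had Pearson's r = 0.985 (permutation p = 2e-05, the smallest that 100000 permutations can give, adjusted p = 0.00012) and Spearman's rho = 0.986 (permutation p = 2e-05, adjusted p = 0.00012). The value of r was 0.967 without control 4 and iKO 1, 0.992 within iKO and 0.983 within controls. For Nkx6-2, r was 0.831 (permutation p = 0.00118, adjusted p = 0.00236) and rho 0.797 (permutation p = 0.0031, adjusted p = 0.0062), with r = 0.801 without the same pair of libraries, 0.777 within iKO and 0.991 within controls. These p-values are two-sided and adjusted over 6 pairs of a gene and a list, chosen after the values were seen. The part of oligodendrocyte RNA in the group difference of Olig1 was not tested. Dbx2 was also highest in controls 6, 2 and 5 (2.4, 1.86 and 1.68 CPM), where these markers summed to 1827, 1055 and 737 CPM. It was lowest in iKO 1 and control 4 (0.629 and 0.839 CPM), as were the markers. Within iKO, Dbx2 was highest in iKO 6 and the markers in iKO 3. The correlation of Dbx2 with the list was not tested.

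**Figure D2:**
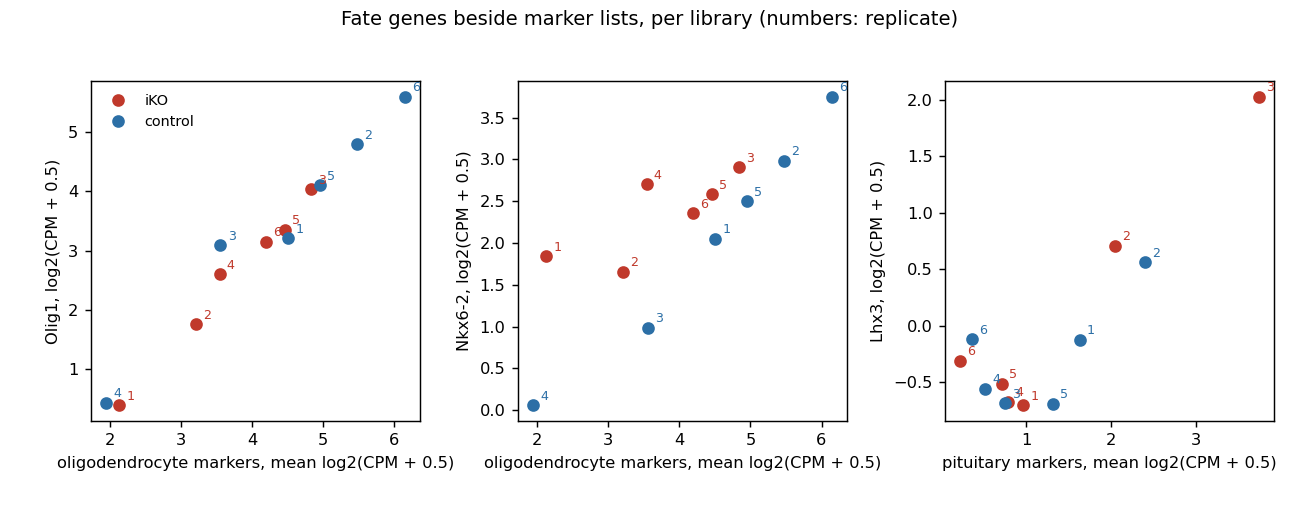
Level of Olig1, Nkx6-2 and Lhx3 in each library on the log2(CPM + 0.5) scale, against the mean of the oligodendrocyte or pituitary markers on the same scale, with red points for iKO, blue points for control and replicate numbers beside them. Olig1 lies along 1 line in both groups (r = 0.985), and the Lhx3 panel is spread out by iKO 3.

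Gsx1, a factor of dorsal progenitors, had 1 read in iKO 5, against 1 and 3 reads in controls 5 and 6. Olig3, which marks dorsal progenitors next to the roof plate, had 43 reads in iKO and 35 in controls. Of the iKO reads, 26 came from iKO 6, where the level was 1.33 CPM, against at most 0.379 CPM in the other iKO libraries and 0.779 CPM in the highest control, control 4. The log2 fold change without the filter was 0.33 ± 0.63 (SE, 95% interval -0.97 to 1.64, edgeR adjusted p = 0.901). Among 15 other progenitor genes of the spinal cord and hindbrain, 6 were tested and none passed, against 0.379% of all genes. Their median log2 fold change was -0.17. Pax6 had 0.767 ± 0.211 CPM in iKO and 1.6 ± 0.704 CPM in controls (log2 fold change -1.05, edgeR adjusted p = 0.191), and Nkx2-2, used by V3 progenitors and by oligodendrocyte precursors, differed by -1.07 on the log2 scale (edgeR adjusted p = 0.566).

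The proneural genes that start sensory neurogenesis were at traces in both groups. Neurog1, the factor that launches most nociceptors in the embryo, had 4 to 10 reads in each of the 12 libraries, at 0.242 to 0.512 CPM with a median of 0.325 in iKO and 0.28 to 0.601 CPM with a median of 0.335 in controls. The 2 ranges largely coincided, with a log2 fold change of -0.13 ± 0.36 (SE, 95% interval -0.87 to 0.62, edgeR adjusted p = 0.945). Neurog2, which acts earlier and mainly in other sensory neurons, had 9 reads in iKO, 5 of them in iKO 6, against 5 reads in controls, 1 in each control but control 5. Neurog3, the endocrine factor of the pancreas, ran from 0.227 to 0.512 CPM with a median of 0.39 in iKO, against 0.309 to 0.801 CPM with a median of 0.492 in controls (log2 fold change -0.45 ± 0.35, edgeR adjusted p = 0.787). Exons of Fam241b overlap Neurog3 on the opposite strand and held 2784 reads in iKO and 2441 in controls, so the reads counted for Neurog3 cannot be assigned to it with certainty.

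Genes of postmitotic neuron classes included Bhlhe22 and Tlx1, read in every library, Lhx3, which was high in single libraries, and near-silent genes. Of the 8, Bhlhe22 and Tlx1 passed the count filter. None of the 8 passed the threshold, against 0.379% of all genes after the filter and 0.378% without it. Bhlhe22, a bHLH factor of dorsal horn interneurons and cortical neurons, ran from 1.8 to 3.52 CPM with a median of 2.42 in iKO, against 1.7 to 3.2 CPM with a median of 2.5 in controls. Its log2 fold change was 0.03 ± 0.19 (SE, 95% interval -0.37 to 0.44, edgeR adjusted p = 0.966), the narrowest interval of the 6 genes tested after the filter. Tlx1, a homeobox gene of excitatory dorsal horn neurons and of the spleen, ran from 0.227 to 1.14 CPM with a median of 0.559 in iKO, against 0.599 to 1.32 CPM with a median of 0.808 in controls. iKO 1, 3 and 4 lay among the controls while iKO 2, 5 and 6 lay below all of them, and the log2 fold change was -0.52 ± 0.32 (SE, 95% interval -1.22 to 0.18, edgeR adjusted p = 0.604).

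Lhx3, a LIM homeobox gene of motor neurons, V2 interneurons and the pituitary, had 85 reads in iKO 3, 15 in iKO 2 and 2 to 6 in the other iKO libraries, against 19 reads in control 2 and 2 to 9 in the other controls. In CPM the iKO values ran from 0.114 to 3.59 with a median of 0.255, against 0.12 to 0.98 with a median of 0.3 in controls. The groups overlapped, and without the filter the log2 fold change was 0.66 ± 0.56 (SE, 95% interval -0.50 to 1.82, edgeR adjusted p = 0.787). Pituitary markers were highest in the same libraries. They summed to 2807 CPM in iKO 3 and 348 CPM in iKO 2, with 11.2 to 51.8 CPM in the other iKO libraries, against 688 CPM in control 2 and 13.2 to 187 CPM in the other controls. Of the 10 markers Lhb was at 0 in both groups, while growth hormone (Gh) reached 1313 CPM in iKO 3 and Pou1f1, a factor of its cells, 4.77 CPM there. Lhx3 and the mean log2 level of the list had r = 0.884 (permutation p = 0.00286, adjusted p = 0.00429) and rho = 0.385 (permutation p = 0.22, adjusted p = 0.264). Without iKO 3 and control 2, r was 0.553, and it was 0.949 within iKO and 0.676 within controls, so the relation rests largely on the libraries with most pituitary RNA. The part of pituitary RNA in the Lhx3 reads was not tested. The antisense gene Gm27196 overlaps Lhx3 exons, with 22 reads in iKO and 7 in controls.

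En1, the marker of V1 interneurons, had no read in iKO and 1 read each in controls 3 and 6. Evx2, the neighbour of the Hoxd cluster, had 1 read in iKO 5, against 1 in control 3. Hmx2 and Hmx3, homeobox genes of the inner ear and hypothalamus, had 1 and 3 reads in iKO, against 1 read each in controls, all of the control reads in control 6. These totals are within the counting error of each other. Among 22 other genes of spinal neuron classes, 8 were tested and none passed, against 0.379% of all genes. Their median log2 fold change was -0.37. The smallest p-values were those of Vsx1 (-0.57, edgeR adjusted p = 0.332) and Lmx1b (-0.38, edgeR adjusted p = 0.53).

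Of the 26 genes, 6 passed the filter on low counts and 0 of these 6 differed between iKO and control in edgeR, where 63 of 16637 genes (0.379%) did. At an unadjusted p under 0.05 there was 1 of the 6, Dbx2, against 10.9% of the 16637 genes, and DESeq2 and limma-voom called none of them. In the fit without a filter, 22 genes had reads and none passed, against 0.378% of 36539 genes, with the smallest edgeR adjusted p at 0.564 for Olig1. At an unadjusted p under 0.05 there were 3 of the 22, Olig1, Dbx2 and Nkx6-1, all with lower values in iKO, against 7.01% of the 36539 genes. In none of the 6 filtered genes did the iKO values lie apart from the control values, a separation seen in 1.2% of the 16637 genes. The intervals differed in width. For Bhlhe22 the 95% interval of the log2 fold change ran from -0.37 to 0.44, and for Nkx6-2 it ran from -1.29 to 1.076.

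**Figure D3:**
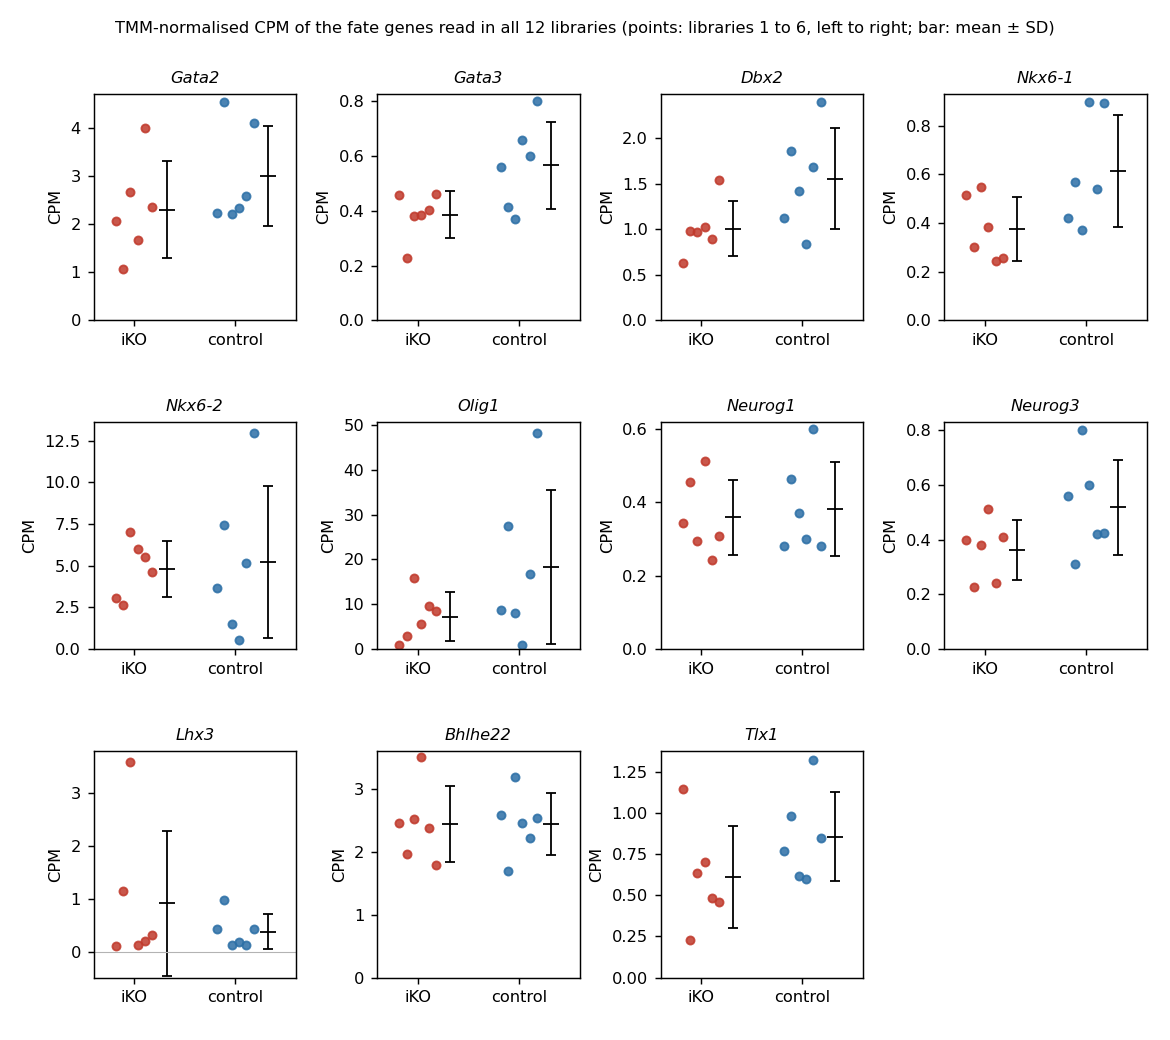
CPM of the 11 genes with reads in all 12 libraries, 1 panel a gene, with points for iKO (red) and control (blue) libraries and a bar for the mean and SD (n = 6 each). The groups overlap in every panel, with Olig1 and Nkx6-2 spread most among the controls and Lhx3 high in iKO 3 at 3.59 CPM.

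**Figure D4:**
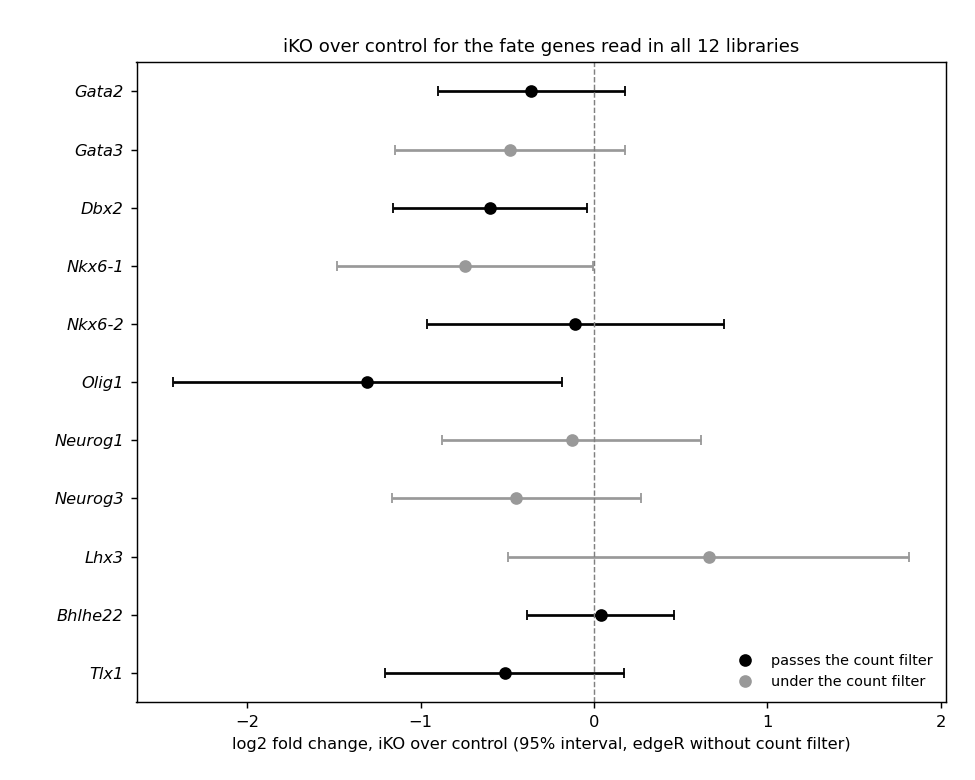
Log2 fold change of iKO over control for the same 11 genes with its 95% interval, from the edgeR fit without a count filter, in black for genes that pass the filter and in grey for those under it. Most points lie left of 0 and the interval of Bhlhe22 is the narrowest, while no gene passed after adjustment over 36539 genes.

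Per kilobase of exon (GENCODE M21 lengths), the level of the 11 genes in control ganglia ran, from high to low, from Olig1 (8.47 ± 7.96 CPM per kb) and Nkx6-2 (2.73 ± 2.39) to Bhlhe22 (0.733 ± 0.147), Gata2 (0.556 ± 0.192), Dbx2 (0.447 ± 0.16) and Tlx1 (0.4 ± 0.126). The lowest were Neurog3 (0.31 ± 0.104), Neurog1 (0.227 ± 0.0759), Nkx6-1 (0.196 ± 0.0733), Gata3 (0.1425 ± 0.04) and Lhx3 (0.123 ± 0.108), each a mean ± SD over 6 controls. Each neighbouring pair in this order differed by less than the larger of its 2 SDs. In iKO, Olig1 (3.33 ± 2.5 CPM per kb) and Nkx6-2 (2.52 ± 0.89) were again the first pair, and Lhx3, at 0.3 ± 0.448, stood above Tlx1 with an SD larger than its mean.

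The tamoxifen-injected controls, of several genotypes, and the corn oil controls were also taken apart. In replicates 1 to 4, where every mouse received tamoxifen, the log2 fold changes of the 6 tested genes ran from -0.87 (Olig1) to 0.59 (Nkx6-2), and none passed, against 0.114% of all genes. In replicates 5 and 6, where iKO and control shared the genotype and differed in the injection, they ran from -1.85 (Olig1) to -0.07 (Gata2), and none passed, against 0.00601% of all genes. Nkx6-2 had a log2 fold change of -0.85 there and Tlx1 one of -1.17 (unadjusted p = 0.0447, edgeR adjusted p = 0.626), with -0.17 in replicates 1 to 4. The difference between the replicate sets was itself tested and passed for none of the 6 genes, with 0% of all genes called (edgeR, 568 of 16637 at an unadjusted p under 0.05). The effect did not differ past the threshold between the sexes for any of the 6 either, with 0% of all genes called (edgeR, 318 at an unadjusted p under 0.05). All libraries of replicates 5 and 6 were from males, so the set difference and the sex difference are partly the same comparison.

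Markers of other tissues were counted beside the fate genes. Of 81 tested genes in 13 marker lists none passed the threshold, against 0.379% of all genes, with the smallest edgeR adjusted p at 0.0638. Gata2 followed the 8 endothelial markers across the 12 libraries (r = 0.892, permutation p = 0.00012, adjusted p = 0.00036; rho = 0.832, permutation p = 0.00134, adjusted p = 0.00402), with r = 0.845 without iKO 2 and iKO 5, 0.912 within iKO and 0.899 within controls. With the 8 mast cell markers r was 0.751 (permutation p = 0.0063, adjusted p = 0.00756) and rho 0.608 (permutation p = 0.0399, adjusted p = 0.0598), with r = 0.681 without iKO 4 and control 2, 0.739 within iKO and 0.645 within controls. For Gata3 and the 8 T cell markers r was -0.04 (permutation p = 0.904, adjusted p = 0.904) and rho -0.08 (permutation p = 0.811, adjusted p = 0.811), with r = -0.12 without iKO 2 and control 6, -0.899 within iKO and 0.0636 within controls. Endothelial markers summed to 75.8 to 141 CPM in iKO, against 96 to 120 CPM in controls, and mast cell markers to 72.6 to 91.3 CPM in iKO, against 73.4 to 97 CPM in controls. Kit, which marks more than mast cells, made up most of the mast cell sum, at 62.9 CPM in iKO and 64.3 CPM in controls on average. The 6 tested mast cell markers had a median log2 fold change of -0.49, with -0.71 for Mcpt4 (unadjusted p = 0.0385, edgeR adjusted p = 0.424) and -0.63 for Tpsb2 (edgeR adjusted p = 0.464), beside -0.36 for Gata2. The part of these cells in the Gata2 values was not tested.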

How the data were processed

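RNA-seq of trigeminal ganglia gave 1 table of gene counts per library, whole numbers that the authors deposited unscaled. Build GRCm39 is named in the submitters' processing notes, as are STAR 2.7.8a, featureCounts 2.0.1 and, for base calls, bcl2fastq 2.20.0.422. Per the labels' protocols the polyadenylated RNA libraries do not mark strand. The gene annotation was not given in the sources used here.

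The 26 genes and all lists were chosen with earlier results of these data known. All 26 matched 1 Ensembl identifier by symbol, and 52083 of 55416 identifiers had a symbol. Promoters are from RefSeq, and exon lengths and overlapping genes from GENCODE M21 (GRCm38), an older build than that of the reads.

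The test was that of edgeR 4.0.16 (R 4.3.3), with filterByExpr by group, TMM, quasi-likelihood test with sex as covariate, Benjamini-Hochberg adjustment over all genes tested, threshold 0.05. A second fit kept every gene with at least 1 read. SE was the absolute log2 fold change over the root of F, and intervals are 95%. Replicate sets were contrasts in 1 fit. Since the labels do not state that each library is a separate animal, p-values measure the spread between these samples, which may be technical. The chi-square per degree of freedom of same-group pairs was 7.16 to 26.2, so none was counted as a duplicate. Correlations used log2(CPM + 0.5) and 100000 permutations. All 26 genes are named, and from other lists the genes past the threshold or the 2 smallest p-values. Some results under this rule are not reported here. Further genes (Dbh, Npy, Slc18a3 and the markers given by level) were named after their values were seen. Identifiers without a symbol held 0.274% of counts. The fits were tested on simulated data, and alternatives included DESeq2 1.42.0 and limma-voom (limma 3.58.1).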

Additional observations from a re-analysis of the deposited data

Results flagged for a closer look

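Within a group of 6 libraries, a value was singled out when its distance to the nearest other value exceeded Dixon's 95% critical share of the whole range. The rate of about 1 in 20 groups by chance holds for normally distributed values and not for sparse counts. A group with all its reads in 1 library is always flagged. Of 41 groups of the fate genes with varying values, 16 flags were raised, and in 9 of them 1 library held every read of the group, so that 1 to 8 reads raised the flag.

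In iKO 5 these were Phox2a and Hand2 (0.323 CPM each), and Gsx1, Evx2 and Hmx2 (0.0404 CPM each, 1 read). iKO 3 stood out for Lhx3 (3.59 CPM), iKO 6 for Olig3 (1.33 CPM), iKO 4 for Hmx3 (0.128 CPM), and iKO 2 for Gata3, as the lowest (0.227 CPM). Among controls, control 2 stood out for Lhx3 (0.98 CPM), control 4 for Hand2 (0.18 CPM), control 3 for Evx2 (0.0616 CPM) and control 6 for Hand1, Hmx2 and Hmx3 (0.047 CPM each). Control 5 was the 1 control without a read of Neurog2 (0 CPM).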

How the results depend on the processing

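No fate gene passed under any of the 22 alternatives run for the 6 filtered genes, or the 20 run for the 16 under the filter, and leaving out 1 library gave 0 throughout for both. Adjusted p-values of the 6 genes over these alternatives were at least 0.242 (Dbx2). Dbx2 (-0.77 to -0.39), Olig1 (-1.86 to -0.42), Gata2 (-0.68 to -0.10) and Tlx1 (-0.74 to -0.17, not tested under the stricter filter) kept a negative sign. Nkx6-2 turned positive with limma-voom (0.34), in tamoxifen-injected animals (0.78), in replicates 1 to 4 alone (0.58), without control 6, iKO 3 and iKO 5 (0.22), and with 1 control left out (-0.33 to 0.44 over libraries). Bhlhe22, near 0 throughout, turned negative without a covariate (-0.0043), in tamoxifen-injected animals (-0.0145) and with 1 library left out (-0.11 to 0.15). The cause was not tested. The setting without control 6, iKO 3 and iKO 5 was chosen after seeing the data, as were the alternatives for the genes under the filter, the block in replicates 5 and 6, those of the difference between replicate sets, and leaving out libraries for the sex difference.

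Over all genes, the 63 calls became 138 without a filter, 332 with DESeq2, 28 in tamoxifen-injected animals and 12 in replicates 1 to 4 alone. The fit with a replicate block gave 15, and the numbers did not pair the samples (correlations of same-numbered libraries from -0.407 to 0.287), with 1 of 12 libraries closest to its own number. Leaving out 1 library gave 23 to 88, with at most 35 without iKO 1, 5 or 6 or control 1, 2, 3 or 5. In replicates 1 to 4 the 19 calls became 3 with a replicate block, 12 when fitted alone and 2 to 18 with 1 library left out. In replicates 5 and 6 the 1 call became 2 with RLE size factors and 1 to 26 with 1 library left out, and their difference 0 to 15, the highest value of each without iKO 6. The sex difference gave 0 throughout. The release rule's 282 genes became 961 with 2 libraries required, 10 with 2 reads required, 129 without the 3 libraries named above and 154 to 439 with 1 library left out. Its mirror's 160 became 624, 2, 289 and 82 to 254. At least 2 reads in a library were seen for 16 fate genes in iKO and 16 in controls. Depth limits the 9 genes read in 1 to 4 libraries, for which no fold change is given.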
